A study of Homo sapiens with 16 samples.

Results

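UM-UC-3 is an established human bladder cancer cell line. Cells were transfected with 75 nM of a control siRNA or of an siRNA against NAT10 (NAT10-si) and taken after 48 h, with no other allele or agent named in the labels. The study also used the line T24, and its T24 libraries are not analysed here. RNA fragments carrying N4-acetylcytidine (ac4C) were enriched with an antibody in acRIP, and the authors deposited 1 peak list per arm for the replicate round and 1 per arm for a first round. The regions described here are the single-block peaks found only in the replicate NAT10-si list. A peak belongs to them if it lies in 1 exon block and shares no base, on the same strand, with any block of a peak in the replicate control list. They number 7439 of the 13121 single-block peaks and 16753 peaks of that list, and of the 28357 peaks of all 4 lists. They lie in 5842 genes, 5800 of them with a symbol. They were chosen by their absence from the control list, so their number is a description and carries no test. The replicate control list was shorter, with 10253 peaks, 8662 of them single-block, and list length bears on how many peaks are found in 1 arm only.

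NAT10 is the acetyltransferase that makes ac4C in human cells. The mark is firmly placed in 18S ribosomal RNA and in certain tRNAs, and its extent in mRNA is debated. An acRIP peak is a stretch of transcript where the immunoprecipitate holds more reads than the input. Finding one therefore needs enough reads of that transcript, and a peak that misses the caller's threshold is not listed. A NAT10-si-only peak is thus a listing in one arm and not in the other, not a measured gain of ac4C. Each arm had 1 list in this round, and no spread between replicates can be given for any peak.

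The siRNAs that define both arms are given first, 5′ to 3′ as the labels list them, with the terminal T bases in capitals.
NAT10 siRNA: ccaucucucgcaucuauuuTT
Control siRNA: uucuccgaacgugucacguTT
In FPKM, which scales fragments to gene length and library size, the control libraries held NAT10 at 19.0 and 17.6 and the NAT10-si libraries at 4.04 and 3.84. The arms did not overlap (log2 change -1.97, SE 0.06, limma adjusted p = 1.1e-04). The knocked-down transcript itself carried 2 NAT10-si-only peaks and no control peak. They lay near the end of the gene, at chr11:34146463-34146761 with a fold of 9.13 and at chr11:34146750-34146900 with a fold of 14.0 (GRCh38, plus strand), and they overlapped each other. Their log10 false discovery rates were -5.43 and -0.426, so the second, of higher fold, did not reach a rate of 0.05. Fold is the enrichment of immunoprecipitate over input, and folds, p-values and false discovery rates of peaks are the authors' own values throughout.

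The sequences of a few NAT10-si-only peaks show what kinds of transcript they touch, and all were picked for their position after the values had been seen. Of the 7439 peaks, 6 shared a base with a microRNA hairpin on the same strand, among 1562 hairpins of the RefSeq table (GRCh38.p14), and 4 contained a whole hairpin. MicroRNAs pair with targets chiefly through the seed, bases 2 to 8, which is in capitals. The mature sequences, 5′ to 3′, follow.
hsa-miR-3658 (in UCK2): uUUAAGAAaacaccauggagau
hsa-miR-4700-5p (in UNC119B): uCUGGGGAugaggacagugugu
hsa-miR-4700-3p (in UNC119B): cACAGGACugacuccucaccccagug
hsa-miR-7703 (in PSME2): uUGCACUCuggccuucucccagg
hsa-miR-3614-5p (in TRIM25): cCACUUGGaucugaaggcugccc
hsa-miR-3614-3p (in TRIM25): uAGCCUUCagaucuugguguuuu
The 6 mature microRNAs had 6 different seeds. The authors list these peaks under the host genes, and acRIP fragments do not tell a hairpin from the longer RNA around it.

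The PSME2 peak, at chr14:24143362-24143631 on the minus strand, had a fold of 20.2 and a log10 p of -145.0. PSME2, a proteasome activator subunit, had a mean of 20.9 ± 0.0846 FPKM (SD, n = 2) in control libraries and was at 24.8 and 28.1 FPKM in NAT10-si libraries (log2 change 0.32, limma adjusted p = 0.0111, and 0.0503 with no filter on low values). The peaks in UCK2 (chr1:165907792-165908061, fold 7.02), UNC119B (chr12:120723162-120723341, fold 14.0) and TRIM25 (chr17:56891227-56891436, fold 4.51) had weaker p-values, with log10 p between -9.01 and -4.3. UCK2, a uridine-cytidine kinase, went from 10.7 and 10.9 to 7.91 and 7.54 FPKM, and its log2 change was -0.44 (limma adjusted p = 0.00174). UNC119B went from 13.9 in both control libraries to 8.51 and 8.19 FPKM (log2 change -0.67, limma adjusted p = 4.6e-04). TRIM25, a ubiquitin ligase, was at 24.9 in both control libraries and at 20.7 and 21.9 FPKM with NAT10-si (log2 change -0.22, limma adjusted p = 0.0136, and 0.0630 without control replicate 3). These hosts thus included transcripts with higher and with lower values in NAT10-si.

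Near gene starts, 203 NAT10-si-only peaks shared a base with the RefSeq promoter window of any gene, on either strand. A window runs from 250 bases before to 50 after a gene's start, and 25 peaks lay wholly inside one. Of the long noncoding RNA (lncRNA) peaks among them, 2 shared few or none of the first 50 bases transcribed from the window's gene. These 2 are printed 5′ to 3′ on the RNA's own strand. Repeats of C followed by any 2 bases have been reported at acRIP peaks, and capitals mark the longest unbroken run of such triplets.
ALOX12-AS1 peak: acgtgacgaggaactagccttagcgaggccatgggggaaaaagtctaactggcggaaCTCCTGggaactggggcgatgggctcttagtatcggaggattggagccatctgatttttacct
MIOS-DT peak: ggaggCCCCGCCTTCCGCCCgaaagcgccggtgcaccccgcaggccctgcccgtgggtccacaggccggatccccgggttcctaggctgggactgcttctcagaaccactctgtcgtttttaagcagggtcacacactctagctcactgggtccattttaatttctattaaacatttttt
The ALOX12-AS1 peak (chr17:7012230-7012349, minus strand, fold 5.62, log10 false discovery rate -1.3) spanned the RefSeq start of that gene, and its longest run was 2 triplets. Its window was that of RNASEK-C17orf49, a plus-strand gene. The MIOS-DT peak (chr7:7566638-7566817, minus strand, fold 21.1, log10 false discovery rate -0.717) lay upstream of the RefSeq start of MIOS-DT. The longest run in this peak was 5 triplets, and the peak did not reach a false discovery rate of 0.05. The motif CNNCNNCNN, 3 such triplets in a row with overlapping matches counted, matched 4 times on the RNA strand and 1 time on the other strand of the MIOS-DT peak. The ALOX12-AS1 peak had 0 matches on its own strand and 2 on the other. Over the first 180 bases of all 35116 promoter windows, 86.3% held the motif on 1 strand and 96.6% on either, and over the first 120 bases 76.2% and 91.9% did. The motif is common enough that its presence does not single out a peak. ALOX12-AS1 was at 2.22 and 2.14 FPKM in control and 2.82 and 3.20 FPKM in NAT10-si libraries, and MIOS-DT at 0.363 and 0.236 against 0.732 and 0.356 FPKM, below the level tested.

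NAT10-si-only peaks were narrower and less enriched than the 5682 single-block NAT10-si peaks that shared a base with a control peak, called shared peaks here. Their width had a median of 180 bases (quartiles 151 and 211, range 104 to 900), against 270 bases for shared peaks. Their fold had a median of 14.0 (quartiles 7.02 and 21.1, range 1.10 to 1240), against 21.1. The authors' false discovery rate was 0.05 or below for 4671 of them (62.8%), and for 5205 of the shared peaks (91.6%). The 2381 single-block peaks found only in the control list were alike in width (median 179 bases), and 1250 of them (52.5%) met that rate. Folds are not compared across arms, since each list has its own scale.

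The folds of NAT10-si-only peaks fell on a ladder. To 3 significant digits, 3872 of them (52.1%) were whole multiples of 7.02, as were 1685 shared peaks (29.7%), and 1275 control-only peaks (53.5%) were whole multiples of that list's own step. The commonest pair of values, a fold of 14.0 with a log10 p of -1.43, was carried by 815 NAT10-si-only peaks (11.0%) and 66 shared peaks. A further 660 had 21.1 with -2.25, and 357 had 28.1 with -3.09. The 5 commonest pairs together covered 2109 NAT10-si-only peaks (28.4%), 302 shared peaks (5.32%) and, with that list's own pairs, 844 control-only peaks (35.4%). A p above 0.01 was listed for 1227 (16.5%), 142 (2.50%) and 612 (25.7%) of these classes. The read counts behind these values were not used here.

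**Figure D1:**
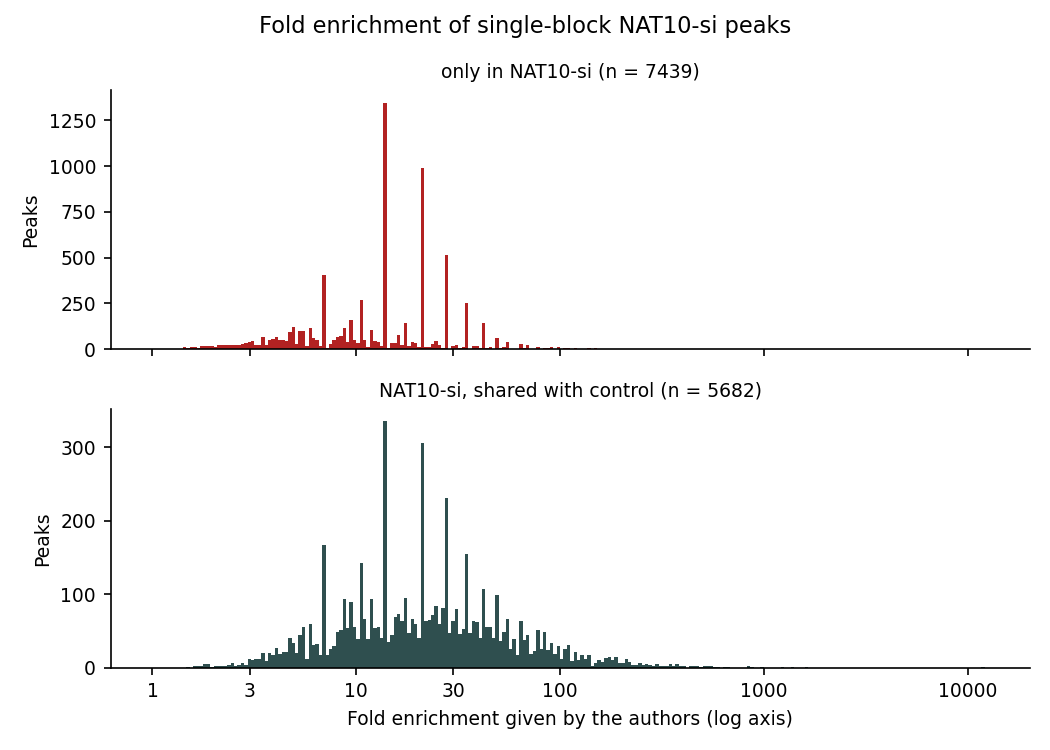
Histograms of the authors' fold enrichment (log axis) for the 7439 single-block peaks only in NAT10-si (top) and the 5682 shared with control (bottom), with the number of peaks on the vertical axis. The tall bars stand at 14.0, 21.1, 28.1 and other multiples of 7.02 and hold a larger share of the upper panel.

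Distances from the control peaks spanned a wide range. The nearest NAT10-si-only peaks were 18 bases from a control block, in TTC9C (chr11:62740005-62740293), and 28 bases from one in SPHK1 and FAM104B. The TTC9C peak is assigned by the authors' list, and its centre lay outside the RefSeq bounds of that gene. Just outside the rule, single-block peaks in BTF3L4, PSRC1 and GTF3C2-AS2 shared 1 base with a control block. The median gap to a control block was 36773 bases, with 257 peaks (3.45%) at 100 bases or less and 1544 (20.8%) at 1000 or less. A control peak stood elsewhere in the gene for 2948 peaks (39.6%), and 1889 (25.4%) lay in a gene that also held a shared single-block peak. The other 4491 (60.4%), in 3591 genes, lay in genes with no control peak at all. Within the list, 284 NAT10-si-only peaks (3.82%) overlapped another one on the same strand, so that the 7439 rows covered 7289 separate stretches, and 58 shared a base with a multi-block peak of the same list. On the opposite strand, 552 (7.42%) faced another NAT10-si peak and 44 a control peak.

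Most of the genes were protein-coding. Of 5220 genes with a RefSeq class, 4667 (89.4%) were protein-coding and 400 (7.66%) lncRNA genes, against 4.98% lncRNA genes under shared peaks and 6.19% under control-only peaks. A single NAT10-si-only peak was found in 4588 genes, 2 in 996, 3 in 196 and more in 62. The X chromosome held 210 of the peaks. The mitochondrial genome held 1, in MT-ND4L with the lowest fold of all (1.10), and shared peaks included 11 there.

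The peaks crowded towards the ends of genes, and less so than shared peaks. Of 6474 that could be placed in a RefSeq gene, 4194 (64.8%) had their centre in the last 10% of the gene's length, against 76.4% of shared and 71.5% of control-only peaks. The median distance from the gene's end was 960 bases, against 290 and 718. Within 500 bases of the end lay 2386 (36.9%), against 61.6% of shared peaks. In genes without a control peak this share was 47.5% (1795 of 3776), and in genes with a control peak elsewhere it was 21.9% (591 of 2698). The rule itself bears on this contrast and on the comparison with shared peaks. A NAT10-si peak that meets a control peak at the gene's end counts as shared. At the other end, 262 (4.05%) lay in the first 10%, against 1.57% and 1.70%, and 246 (3.80%) lay within 500 bases of the start. Positions are along the gene with its introns, and exons were not used here.

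**Figure D2:**
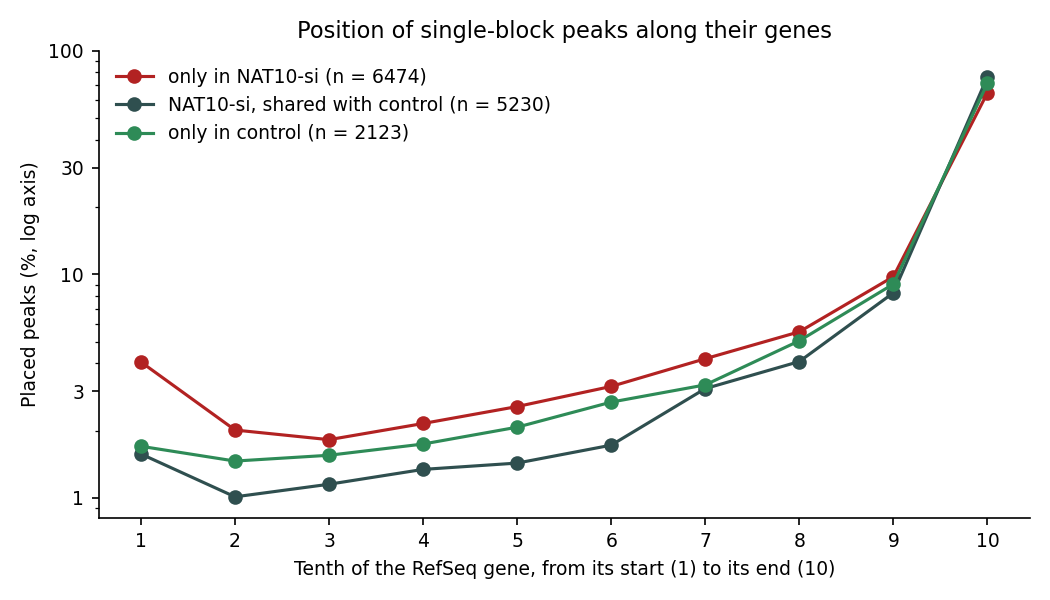
Share of placed single-block peaks (log axis) by position in the RefSeq gene in steps of 10% of its length, for peaks only in NAT10-si (6474), shared with control (5230) and only in control (2123). Every class is highest in the last step, and peaks only in NAT10-si have the largest share of the classes in each of the steps before it.

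The peaks of highest fold were spread over coding and noncoding genes. The highest fold, 1240, belonged to PSMB2, a proteasome core subunit, at chr1:35601009-35601218 on the minus strand. It lay 298 bases from a control block, and the gene also held 3 shared peaks. PSMB2 mRNA was at 32.7 and 32.9 FPKM in control and had a mean of 24.6 ± 0.827 FPKM (SD, n = 2) in NAT10-si libraries, a log2 change of -0.40 (limma adjusted p = 0.00147). KIZ, a centrosomal protein, and RBBP9, a serine hydrolase, had folds of 351, at chr20:21245844-21246622 and chr20:18486540-18486809. KIZ rose from 4.04 and 4.13 to 6.16 and 6.39 FPKM (log2 change 0.52, limma adjusted p = 0.00139). RBBP9 was at 12.9 and 14.9 in control and 10.8 in both NAT10-si libraries (log2 change -0.33, limma adjusted p = 0.0150, and 0.0637 with no filter on low values).

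TNPO3, which imports splicing factors into the nucleus, had a fold of 239 at chr7:128954180-128954570, 190 bases from the gene's end. Its mRNA stood at 28.7 and 27.0 FPKM in control and 28.7 and 27.4 FPKM in NAT10-si libraries, a log2 change of 0.01 (SE 0.05, limma adjusted p = 0.878). The nearest control block on its strand was 656641 bases away, so this strongly enriched peak stood in a gene with no control peak and with overlapping arms in expression. STX7, a syntaxin of endosomes, had a fold of 225 and 2 further NAT10-si-only peaks, and rose from 2.78 and 2.99 to 4.47 and 4.50 FPKM (log2 change 0.50, limma adjusted p = 0.00244). Of the 12 highest folds among peaks with a false discovery rate of at most 0.05, 4 belonged to identifiers with no symbol and 3 to RefSeq lncRNA genes, namely LINC00910 with 267, THUMPD3-AS1 with 232 and RASAL2-AS1 with 225.

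Some genes collected several peaks. MALAT1, a nuclear lncRNA of speckles, held 6 NAT10-si-only peaks, with 2 overlapping pairs among them. The MALAT1 folds were 1.21 to 2.54 for 5 peaks and 112 for the peak nearest the gene's end, at chr11:65506186-65506516. MALAT1 was at 48.4 and 51.9 FPKM in control and 111 and 116 FPKM in NAT10-si libraries, higher by 1.17 (limma adjusted p = 1.7e-04), and no control peak lay in the gene.

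SEC22B, a vesicle SNARE, held 6 NAT10-si-only peaks, 3 of them with the commonest pair of fold and p. SEC22B was at 8.60 and 9.45 against 10.4 and 10.2 FPKM (log2 change 0.17, limma adjusted p = 0.0591). MYL6, a myosin light chain, and DENND3, a Rab regulator, held 5 each beside 1 shared peak, and OSTM1, a lysosomal membrane protein, held 5 with 2 pairs that nearly coincide. DENND3 rose from 6.21 and 6.15 to 10.4 and 10.0 FPKM, and OSTM1 from 10.7 and 11.3 to 14.6 and 15.2 FPKM (limma adjusted p = 6.0e-04 and 0.00266). Of these 5 genes with many peaks, 4 were higher in NAT10-si past the threshold.

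Gene expression in the same arms was read from 2 control and 2 NAT10-si RNA-seq libraries, replicates 2 and 3, with between 17464734 and 36359512 reads recovered from the table. No label ties them to separate cultures. The p-values therefore rest on the spread among 4 libraries, and that spread may be technical. In bulk RNA, fewer cells of a type and less RNA per cell cannot be told apart. Of 14004 genes that averaged 1 FPKM or more, 3904 (27.9%) were higher and 3911 (27.9%) lower in NAT10-si at a limma adjusted p under 0.05. Of 19 urothelial markers 7 reached 1 FPKM in at least 1 library and UPK3A was listed at 0 in all. Of 6 mesenchymal markers 4 reached that level and TWIST1 was listed at 0 in all. The urothelial list summed to 87.2 to 118 FPKM, with KRT18 the largest part in every library. The mesenchymal list summed to 486 to 696 FPKM, nearly all of it VIM, which stood between 458 and 672 FPKM. Of the 9 plasma cell markers none held a NAT10-si-only peak. Their summed level was 56.5 to 59.4 FPKM in control and 46.5 to 96.0 FPKM in NAT10-si libraries. SDC1 had the highest value of the list in every library, and IGKC was at 0.575 and 0 against 20.5 and 5.56 FPKM. The part of these transcripts in the results was not tested.

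Of the 5842 genes with a NAT10-si-only peak, 4594 were tested, 1248 lay below the level tested and 81 of these were listed at 0 in all 4 libraries. Among the tested genes 1463 (31.8%) were higher and 1141 (24.8%) lower, beside 27.9% in each direction among all genes. Their median log2 change was 0.04, against 0.01 for all genes tested. Without control replicate 3 the lower genes numbered 760 and the higher ones 1072. These shares depart from the background by a few percentage points, and most genes with such a peak were not called higher.

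Classes of the peaks differed more. Genes with a peak only in control were called higher in 18.3% and lower in 39.7% of 1761 tested genes, and genes with a shared peak in 31.7% and 31.1% of 4578. Genes with a NAT10-si-only peak and no control peak were higher in 31.5% and lower in 22.6% of 2518. With 3 or more such peaks, 42.2% of 232 genes were higher and 19.0% lower. With a peak in the first 10% of the gene, 46.6% of 191 were higher and 16.2% lower. Of 212 tested lncRNA genes with a NAT10-si-only peak 35.8% were higher and 11.3% lower, and the shares among all tested lncRNA genes are not given here. In contrast, among 231 genes whose NAT10-si-only peaks all carried the commonest pair of fold and p, 16.9% were higher and 27.3% lower. Of 3352 genes with a peak whose false discovery rate was 0.05 or below, 34.5% were higher and 24.1% lower. No class was tested against another, and a gene can be in several.

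**Figure D3:**
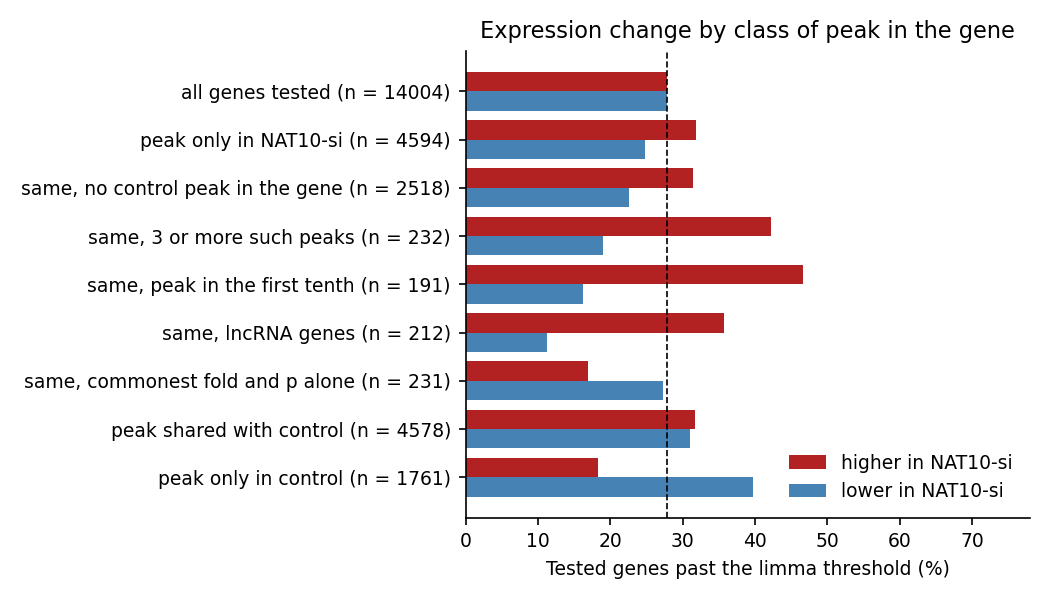
Share of tested genes called higher (red) or lower (blue) in NAT10-si, by the kind of single-block peak in the gene, with the share of all genes as a dashed line at 27.9%. The rows marked "same" are subsets of the genes with a peak only in NAT10-si, and the bottom row, genes with a peak only in control, shows 39.7% lower.

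Read from the genes' side, a NAT10-si-only peak was listed for 37.5% of the 3904 higher genes, 29.2% of the 3911 lower genes and 32.2% of the 6189 others. A control-only single-block peak was listed for 8.27%, 17.9% and 11.9%. Expression level moved with the peaks as well. Of genes at 1 to 3 FPKM 27.5% held a NAT10-si-only peak, at 3 to 10 FPKM 37.2%, at 10 to 30 FPKM 34.9%, at 30 to 100 FPKM 27.4% and at 100 FPKM or more 22.3%. Shared peaks instead went from 13.5% at 1 to 3 FPKM to 58.8% at 30 to 100 FPKM. Genes with NAT10-si-only peaks had a median of 6.50 FPKM and those with shared peaks 11.1 FPKM, beside 6.27 FPKM for all genes tested. Within each of the bands from 1 to 100 FPKM the share called higher was larger among genes with a NAT10-si-only peak than among all genes, as in the 3 to 10 FPKM band (31.3% against 27.2%), and at 100 FPKM or more it was smaller (32.1% against 38.0%).

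**Figure D4:**
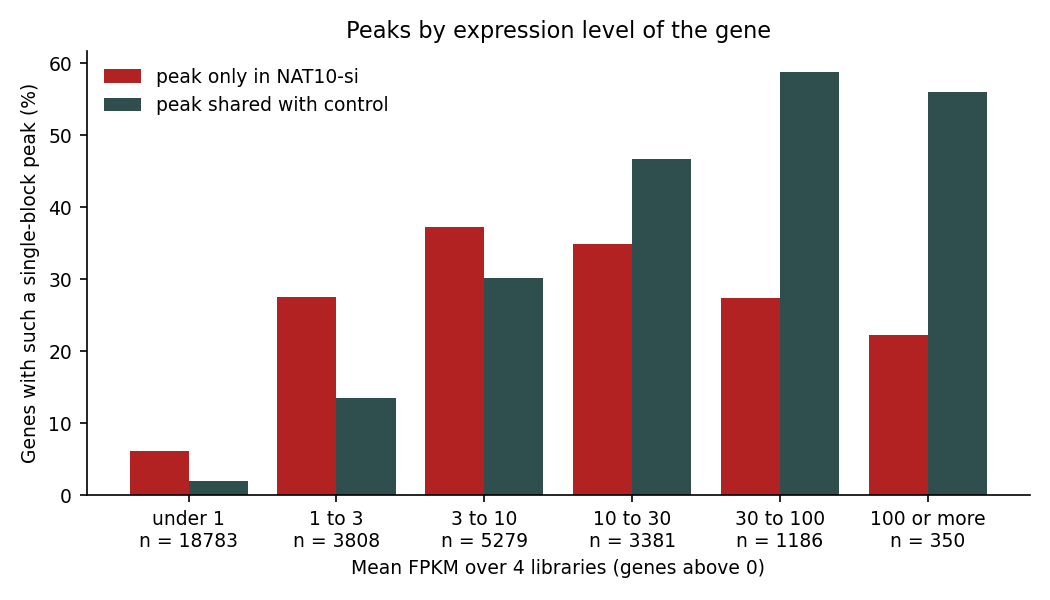
Share of genes holding a single-block peak only in NAT10-si (red) or shared with control (dark) by mean FPKM over 4 libraries. The red bars are highest at 3 to 10 FPKM (37.2%) and the dark bars at 30 to 100 FPKM (58.8%).

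Clustered histone genes, the replication-dependent genes that package new DNA, were mostly higher in NAT10-si, with and without these peaks. Of 65 such genes, listed by symbol after the data had been seen, 15 held NAT10-si-only peaks, 14 of them with no control peak in the gene, and 2 held a shared peak. Of the 13 tested, 12 were higher and none lower, and of all 27 tested histone genes 25 were higher. The 13 are 48.1% of the tested histone genes, beside 4594 of all 14004 tested genes with such a peak. H2BC21 held 2 such peaks, the stronger with a fold of 74.9 at chr1:149884459-149884904. It was at 1.11 and 1.14 FPKM in control and at 27.0 and 27.7 FPKM in NAT10-si libraries, a log2 change of 3.74 (SE 0.05, limma adjusted p = 5.4e-05).

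H3C10 had a fold of 82.5 and rose from 1.35 and 1.53 to 14.3 and 15.3 FPKM (limma adjusted p = 8.1e-05). H2AC8, with a fold of 56.2, rose from 1.18 and 0.502 to 13.3 and 12.6 FPKM, and H2BC7, with a fold of 21.1, from 0.343 and 0.427 to 8.30 and 10.9 FPKM (limma adjusted p = 3.0e-04 and 1.8e-04). H4C5 held 3 peaks with folds up to 70.2 and stayed below the level tested, at 0.331 and 0.172 against 1.14 and 2.07 FPKM. The peaks of H3C10, H2BC7 and H4C5 are assigned to these genes by the authors' list, and their centres lay outside the RefSeq bounds of the genes. All of these named histone genes were at 1.53 FPKM or less in both control libraries. Histone genes resemble each other closely, and reads may have been split or shared between copies.

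Stress and signalling genes were mostly higher in NAT10-si, both those with NAT10-si-only peaks and the whole lists they belong to. Of 16 immediate early genes with such a peak, which cells switch on within minutes of a signal, 14 were tested, 11 were higher and 1 lower, beside 28 higher and 2 lower of the 34 tested in the whole list. EGR1, a zinc finger transcription factor, held 4 peaks with folds from 2.45 to 21.1, between positions 138467582 and 138469195 of chromosome 5, and no control peak. EGR1 was at 7.90 and 7.57 FPKM in control and 38.2 and 40.4 FPKM in NAT10-si libraries (log2 change 2.21, limma adjusted p = 6.0e-05). PER1, a circadian repressor, held 2 and rose from 3.98 and 3.87 to 37.6 and 38.7 FPKM (log2 change 2.99, limma adjusted p = 5.4e-05). BTG1, an antiproliferative gene, had a fold of 23.9 and rose from 10.0 and 10.8 to 25.6 and 27.6 FPKM (limma adjusted p = 2.1e-04).

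Of 12 NF-kB targets with a NAT10-si-only peak, 10 had no control peak, 9 were tested and 7 were higher, beside 19 of 22 tested in the whole list. NFKBIA, the inhibitor that holds NF-kB in the cytoplasm, had a fold of 23.4 and went from 20.0 and 18.7 to 50.7 and 52.8 FPKM (log2 change 1.37, limma adjusted p = 1.4e-04). BIRC3, an inhibitor of apoptosis, held 2 peaks and rose by 1.26, and TNFAIP3, a deubiquitinase that dampens the pathway, held 1 and rose by 1.48. Of 14 genes of the unfolded protein response and the integrated stress response, 10 were higher and 2 lower, beside 26 and 4 of 38 tested in the whole list. HSPA5, the endoplasmic reticulum chaperone BiP, held peaks of folds 49.1 and 1.28 beside a control peak elsewhere in the gene, and was at 249 and 255 against 736 and 745 FPKM (log2 change 1.55, limma adjusted p = 6.0e-05). HERPUD1, which acts in degradation of misfolded proteins, held 2 with folds of 14.6 and 68.8 and no control peak, and rose by 1.33.

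The heat shock genes HSPA1A and HSPA1B held 1 and 2 such peaks. HSPA1A, with a fold of 45.6, went from 6.93 and 5.90 to 37.2 and 39.3 FPKM, and HSPA1B from 11.5 and 11.6 to 75.7 and 80.9 FPKM (limma adjusted p = 1.1e-04 and 5.6e-05). They are near-identical copies, so which copy the reads came from is uncertain.

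Extracellular matrix and adhesion genes with such peaks numbered 14, with 12 of 13 tested higher and none lower, beside 29 higher and 1 lower of 33 tested in the whole list. MMP2, a gelatinase, held 2 peaks and rose from 8.31 and 7.73 to a mean of 11.6 ± 0.531 FPKM (SD, n = 2) (limma adjusted p = 0.00211). PLAUR, the urokinase receptor, had a fold of 22.5 and rose from 31.5 and 29.8 to 45.5 and 48.6 FPKM (limma adjusted p = 7.7e-04). The PLAUR peak is assigned to this gene by the authors' list, and its centre lay outside the RefSeq bounds of the gene. Of 16 sterol and fatty acid synthesis genes with a NAT10-si-only peak, 15 were tested, 11 were higher and 3 lower, while all 32 tested genes of that list split into 13 higher and 15 lower. STARD4, a sterol carrier, had a fold of 29.2 beside a control peak 239 bases away and rose from 7.55 and 8.95 to 19.8 and 19.4 FPKM (limma adjusted p = 4.3e-04). HSD17B7, a cholesterol synthesis enzyme, had a fold of 25.4 and rose by 1.03.

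**Figure D5:**
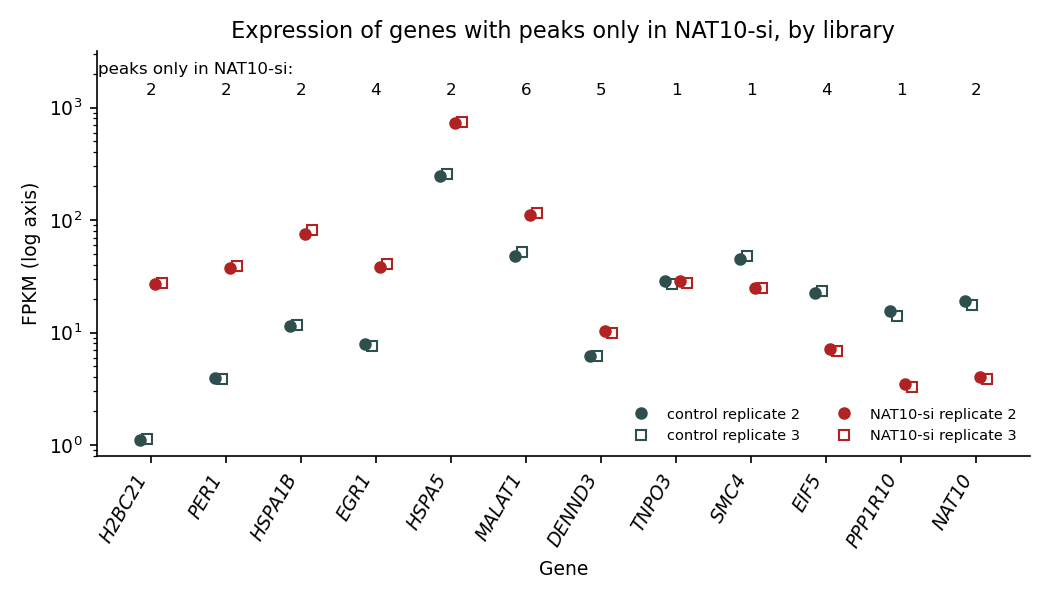
Expression in FPKM (log axis) of 12 genes with NAT10-si-only peaks in control replicates 2 and 3 (dark) and NAT10-si replicates 2 and 3 (red), with the number of such peaks in each gene above it. H2BC21 to DENND3 sit higher in both NAT10-si libraries, TNPO3 overlaps between arms, and SMC4 to NAT10 sit lower.

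Genes that fell held NAT10-si-only peaks too. Of 15 replication genes with one, 13 were lower and none higher, in a list where 41 of 45 tested genes were lower. RRM1, the large subunit of ribonucleotide reductase, had a fold of 21.1 and no control peak, and fell from 48.1 and 50.6 to 29.0 and 29.4 FPKM (limma adjusted p = 3.1e-04). Of 14 mitosis genes 13 were lower, beside 40 of 41 in the whole list. SMC4, a condensin subunit, had a fold of 16.4 and fell from 45.3 and 47.6 to 24.8 and 24.7 FPKM (limma adjusted p = 2.2e-04). Of 13 ribosome biogenesis genes all 12 tested were lower, beside 42 of 47, with UTP4, a small-subunit assembly factor, at a fold of 98.3 and a log2 change of -0.69.

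Of 14 genes of homologous recombination and crosslink repair, 12 were tested, 10 were lower and 1 was higher, beside 34 lower and 1 higher of 40 tested in the whole list. RAD52, a strand annealing protein, was the one that rose, from 4.62 and 4.80 to 7.04 and 7.27 FPKM (limma adjusted p = 0.00135), with folds of 40.7 and 8.42 and no control peak.

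Among genes with a NAT10-si-only peak that averaged 3 FPKM or more and whose arms did not overlap, the largest decrease after NAT10 was that of PPP1R10, a phosphatase targeting subunit, from 15.4 and 13.9 to 3.48 and 3.31 FPKM (log2 change -1.83, limma adjusted p = 1.4e-04). Its peak lay 29 bases from a control block and had a false discovery rate above 0.05. EIF5, a translation initiation factor, held 4 such peaks and no control peak while it fell from 22.3 and 23.5 to 7.11 and 6.84 FPKM (log2 change -1.58, limma adjusted p = 1.1e-04). The log10 false discovery rates of the EIF5 peaks were -3.31, -1.92, -1.08 and -0.554, so not all reached a rate of 0.05. NRAS, a small GTPase, and HNRNPM, a splicing regulator, had folds of 28.1 each and no control peak, and fell by 1.39 and 1.37 on the log2 scale. A peak absent from the control list thus appeared in transcripts that were more abundant in the control libraries.

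The other lists are given beside their whole lists. Of 13 p53 targets with such a peak 7 were higher and 1 lower, beside 13 and 4 of 25 tested. Of 11 interferon-stimulated genes 4 were higher and 2 lower, beside 19 and 5 of 35. Of 33 ribosomal protein genes 14 were higher and 3 lower, beside 43 and 8 of 83. Of 10 chromatin regulators 4 were higher and 4 lower, beside 5 and 15 of 29. CHD2, a chromatin remodeller, held 4 peaks, of which 3 lay between 1420 and 2169 bases from the gene's start with folds of 49.1, 35.1 and 28.1, and rose from 4.18 and 4.07 to 6.63 and 6.57 FPKM (limma adjusted p = 9.6e-04). Among 13 nuclear-retained and snoRNA host RNAs 9 of 12 tested were higher and 2 lower, beside 17 and 2 of 24, and all but 1 of the 13 also had a control peak. Of 8 RNA modification genes 1 was higher and 2 lower, NAT10 among them, beside 2 and 18 of 36. Of 144 ZNF-numbered zinc finger genes with such a peak, 97 had no control peak, and of 110 tested 22 were higher and 25 lower, beside 46 and 78 of 290. Of 10 reported bladder cancer and Wnt genes 9 were tested, none was higher and 4 were lower, beside 3 and 8 of 17. AHNAK, a large scaffold protein, held 2 peaks of low fold (1.52 and 1.32) and was at 105 and 96.2 against 66.9 and 60.2 FPKM (limma adjusted p = 0.00129). BCL9L, a Wnt coactivator, held 1 with a fold of 5.78 and a limma adjusted p of 0.0970, and SOX4 and AKT1 held none.

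Among markers of other cell types, 2 of 10 immune markers, LCP1 and CD68, and none of 9 plasma cell markers held NAT10-si-only peaks, beside 5842 of all 58302 genes. LCP1, an actin bundler, went from 0.837 and 0.848 to 3.70 and 4.02 FPKM (log2 change 1.40, limma adjusted p = 3.0e-04). CD68 held peaks with folds of 1.55 and 30.4 although it was at 0.0482 to 0.204 FPKM in all libraries, and PTPRC and MS4A1 were listed at 0 in all. KRT19, a keratin, had a fold of 28.1 and stood at 0.0585 and 0.0656 FPKM in control and at 3.25 and 0.646 FPKM in NAT10-si libraries, which differ several-fold from each other (limma adjusted p = 0.0507). The adjusted p for the expression change of KRT19 was 0.0459 with a replicate block, 0.0231 with a pseudocount of 0.1, 0.00219 without NAT10-si replicate 3 and 2.6e-06 with voom on recovered reads, all past the threshold. It was 0.179 with no filter on low values, and 0.156 and 0.147 without control replicate 2 or 3.

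The first round offered lists that the choice of peaks had not used. They were much shorter, with 666 NAT10-si and 685 control peaks, and their arm is known from their names alone. Of the 7439 NAT10-si-only peaks, 28 (0.376%) shared a base with a first-round NAT10-si peak and 30 (0.403%) with a first-round control peak, 2 of them with both. The shared peaks met these lists 30 (0.528%) and 32 (0.563%) times. Seen from the first-round lists, 4.05% of the NAT10-si and 4.53% of the control peaks touched a NAT10-si-only peak. The counts were similar for both arms of the first round. Those with the NAT10-si arm of highest fold included SIRT2 (63.2), a deacetylase, H2BC4 (28.1) and DNTTIP2 (17.5). H2BC4 rose from 1.05 and 1.47 to 7.09 and 7.71 FPKM (limma adjusted p = 2.8e-04), and DNTTIP2, a nucleolar gene, fell from 14.0 and 14.3 to 9.58 and 9.22 FPKM (limma adjusted p = 7.9e-04).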

How the data were processed

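The labels describe 16 samples, and 4 RNA-seq libraries and 4 acRIP peak lists of UM-UC-3 were used. Per the labels' protocols, RNA was extracted in Trizol and cleaned on columns. Per the submitters' processing notes, HISAT2 2.1.0, HTSeq 0.6.1, bcl2fastq 2.19.1 and hg19 were used. The peak caller and its settings were not given in the sources used here. Each deposited peak row holds a p-value, a fold (ratio over input) and log10 scores for the p-value and false discovery rate, all by the authors, per the file headers. Peak starts matched RefSeq GRCh38 gene starts counted from 0 (1466 peaks, against 119 counted from 1), so coordinates are printed as GRCh38, counted from 1. The deposited expression values name no unit and were read as FPKM, made by the authors. Whole reads were recovered for 27570 of 27571 genes above 0 in at least 2 libraries (relative tolerance 2e-09, beside rounding), and voom on those reads, an alternative, called 1852 genes with a NAT10-si-only peak higher and 1240 lower. The smallest whole numbers that fit a gene were taken, so a factor common to its libraries is lost. Recovered reads and their library totals may therefore be too low.

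Expression was tested with limma-trend (limma 3.58.1, R 4.3.3) on log2(FPKM + 1) for genes averaging 1 FPKM or more, with Benjamini-Hochberg adjustment over all genes and a threshold of 0.05. The steps were tested on simulated data. Fold changes are on that scale and understate changes of low genes. Peaks were compared by shared bases (1 or more) on the same strand in Python 3.11.15. The peaks and gene lists were chosen with earlier results of these data known. Named genes are NAT10, AHNAK, BCL9L, SOX4 and AKT1, the 12 peaks of highest fold, the 6 genes with the most peaks, the 8 largest increases and decreases among genes averaging 3 FPKM or more whose arms do not overlap, up to 4 peaks per list and 10 met by a first-round NAT10-si peak, and the 3 peaks on each side of the rule. The genes of the printed sequences were added after their values were seen. A few genes under this rule are left out. Fibroblast and endothelial marker lists held 1 and 0 genes with such a peak, and urothelial and mesenchymal lists 3 and 4.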

Additional observations from a re-analysis of the deposited data

How the results depend on the processing

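Restricting the NAT10-si list to rows whose false discovery rate is 0.05 or below left 4671 NAT10-si-only peaks in 3852 genes. Of these peaks 2647 lay in genes with no control peak, 160 near a gene's start and 1498 near its end. With lists of equal length, the NAT10-si rows of lowest p, 2865 remained in 2503 genes, with 1556, 115 and 905, and 15 met a first-round NAT10-si peak. Both settings keep fewer rows. The other 4 definitions of overlap or fold kept every peak count within 1.5 times. Leaving out 1 library at a time gave 1013 to 1218 higher and 760 to 952 lower genes with such a peak, and 2812 to 3339 and 2750 to 3438 among all genes. Replicate numbers were not shown to pair libraries (correlation of deviations 0.0125), and with a replicate block 1357 genes with such a peak were higher and 1021 lower, against 3664 and 3630 of all genes. With no filter on low values 1104 were higher and 828 lower, of 5761 tested. No named gene reversed its direction past the threshold under these settings. The libraries hold 17464734 to 36359512 recovered reads, and 1 list per arm leaves the peaks without a measure of error.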
